A study of Rattus norvegicus with 48 samples.

Results

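The miR-322, miR-503, miR-351, miR-542, miR-450b and miR-450a hairpins of the rat form a polycistron on chromosome X, and 9 of its names were followed here across 48 small RNA libraries: the mature names miR-322-5p, miR-503-5p, miR-351-5p, miR-351-3p and miR-542-3p and the precursor names mir-322-1, mir-322-2, mir-542-1 and mir-450b-1. The 9 names are part of 1063 in the deposited table, and they were selected on a list of names made with values of these same libraries in view, so that several of their treatment differences below are a description and not a test. Another 15 names of the polycistron are set beside them where they bear on a member. RNA came from the whole amygdala and the ventral striatum of Long Evans rats, male and female, aged 42 days, whose dams were injected in mid-gestation with ethanol or with saline, and which after weaning lived with littermates (non-enriched) or with unfamiliar rats from untreated dams (socially-enriched). Each library was a pool of RNA from 3 rats of one sex, exposure and housing, and 3 pools per sex gave 6 libraries to each of the 4 treatment groups in each region. All rats, saline controls included, had been through a social interaction test and an injection of anaesthetic before the brain was taken. Both regions came from the same set of rats, so the libraries of one region are not independent of those of the other.

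The hairpins of such a polycistron are cut one by one from a long primary transcript and then processed to mature arms, so that members may share a promoter and still differ in abundance through processing and stability. miR-322 is the rodent counterpart of human miR-424, and with miR-503 it is known as a pair that rises as cells leave the cycle and that targets cyclins and other drivers of division. miR-351 carries the seed of the miR-125 family, which is abundant in neural tissue. In RefSeq (build GRCr8) the 6 hairpins lie in 5.31 kb of the minus strand, chrX:137720933-137726241, in the order Mir322 (chrX:137726147-137726241), Mir503 (chrX:137725856-137725926), Mir351 (chrX:137725116-137725196), Mir542 (chrX:137722176-137722254), Mir450b-1 (chrX:137721078-137721146) and Mir450a1 (chrX:137720933-137721023). The deposited values were made on an older build, Rn5, whose annotation holds some of these hairpins more than once, hence the endings -1, -2 and -3.

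Shown from RefSeq, from 5′ to 3′ and with the seed (bases 2 to 8) in capitals, are the mature members miR-322-5p, miR-503-5p, miR-351-5p and miR-542-3p, the 5p arms of the neighbouring mir-450b and mir-450a hairpins, and 3 relatives by seed that lie outside the polycistron (miR-16-5p, miR-195-5p and miR-125b-5p). They show which members share a seed:
miR-322-5p: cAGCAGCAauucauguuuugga
miR-503-5p: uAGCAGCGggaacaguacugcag
miR-16-5p: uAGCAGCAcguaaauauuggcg
miR-195-5p: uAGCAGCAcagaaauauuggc
miR-351-5p: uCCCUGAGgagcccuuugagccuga
miR-125b-5p: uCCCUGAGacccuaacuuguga
miR-542-3p: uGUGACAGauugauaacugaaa
miR-450b-5p: uUUUGCGAuguguuccuaaua
miR-450a-5p: uUUUGCGAuguguuccuaaugu
The seed of miR-322-5p is that of miR-16-5p and miR-195-5p, and miR-503-5p shares with them bases 2 to 7 but not base 8. miR-351-5p and miR-125b-5p have one seed, as have miR-450a-5p and miR-450b-5p, whereas miR-542-3p matches none of the others shown. By bases 2 to 7, the mature names of the polycistron shown here fall into 4 groups.

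Values are RPM, reads scaled by the authors to a fixed total, so that the mature names and the precursor names of a library each add up to 1000000. From the smallest step between values, 1 read was worth between 0.730 and 2.75 RPM for mature names, and the libraries held between 363141 and 1370413 mature reads (median 977844). A level of 3 reads was taken as the floor, between 2.19 and 8.26 RPM for mature names, and this floor covers counting error only. Of the lists of cell type markers, the neuronal one (4 names) summed to between 28425 and 55313 RPM, the oligodendrocyte one (3 names) to between 4671 and 15920 RPM, and the blood one (3 of 4 names in the table) to between 8.96 and 56.9 RPM. The choroid plexus and ependyma list (7 names) summed to between 4572 and 12352 RPM in the ventral striatum, whereas in 13 of the 24 amygdala libraries it lay between 15407 and 145266 RPM and in the other 11 between 3675 and 6225 RPM. In bulk tissue a change in the number of cells of a type cannot be told apart from a change in RNA per cell.

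The members differed far more from each other than between any groups. Of 185801 mature reads of the polycistron over the 48 libraries, miR-351-5p held 89.3%, miR-450a-5p 5.64% and miR-322-5p 3.18%. miR-542-3p, an arm known to act on survivin in other cells, held 0.719%. The remaining mature members were close to absent, since miR-503-5p was counted 17 times in all and miR-351-3p 14 times, with at most 3 reads in any library. For these a level above the floor was not detectable at this depth, and no fold change is given.

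Which arm of a hairpin was kept also differed along the polycistron. The 5p arm took 94.5% of the mature mir-322 reads and 99.99% of the mature mir-351 reads. At mir-503 the arms were the other way round, with 8.29% of 205 reads from the 5p arm, so that the arm among the members, miR-503-5p, was the minor one. The mir-542 arms were closest to balance, with 38.8% of 2180 reads from the 5p arm. This share was 40.96% in the amygdala (Wilson 95% interval 37.8% to 44.2%) against 37.2% in the ventral striatum (34.6% to 39.9%). These intervals pool the reads of 24 libraries and cover counting error only, not the spread between pools, and the regions were not compared by a test. The 3p arm of mir-542 held more reads in 21 of 24 amygdala and 22 of 24 ventral striatum libraries, whereas the 5p arm of mir-322 held more in all 48.

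The precursor members are not an independent measurement of the mature ones. All values of the polycistron lay within 0.0149 of a whole number of reads, which allowed the reads of each hairpin to be added over its copies and set against the reads of its mature arms. For mir-351 the mature arms accounted for 99.98% of the precursor reads, and for mir-450a for 98.5%. For mir-322 the share was 84.1% (between 70.8% and 90.4% per library), and for mir-542 it was 86.4%. mir-450b stood apart at 37.4%, with 685 reads in the mature arms against 1833 in the precursor rows, and between 7.69% and 64.3% per library. Thus a value of mir-322-1 largely repeats reads of miR-322-5p, whereas most mir-450b reads, over both copies, belonged to no mature name. mir-450b-1 held 746 of those reads and mir-450b-2 1087. The mature reads were not divided by copy, so the share for mir-450b-1 alone is not known.

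Levels of each member by library are shown in the plot of the 9 names by group.

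**Figure D1:**
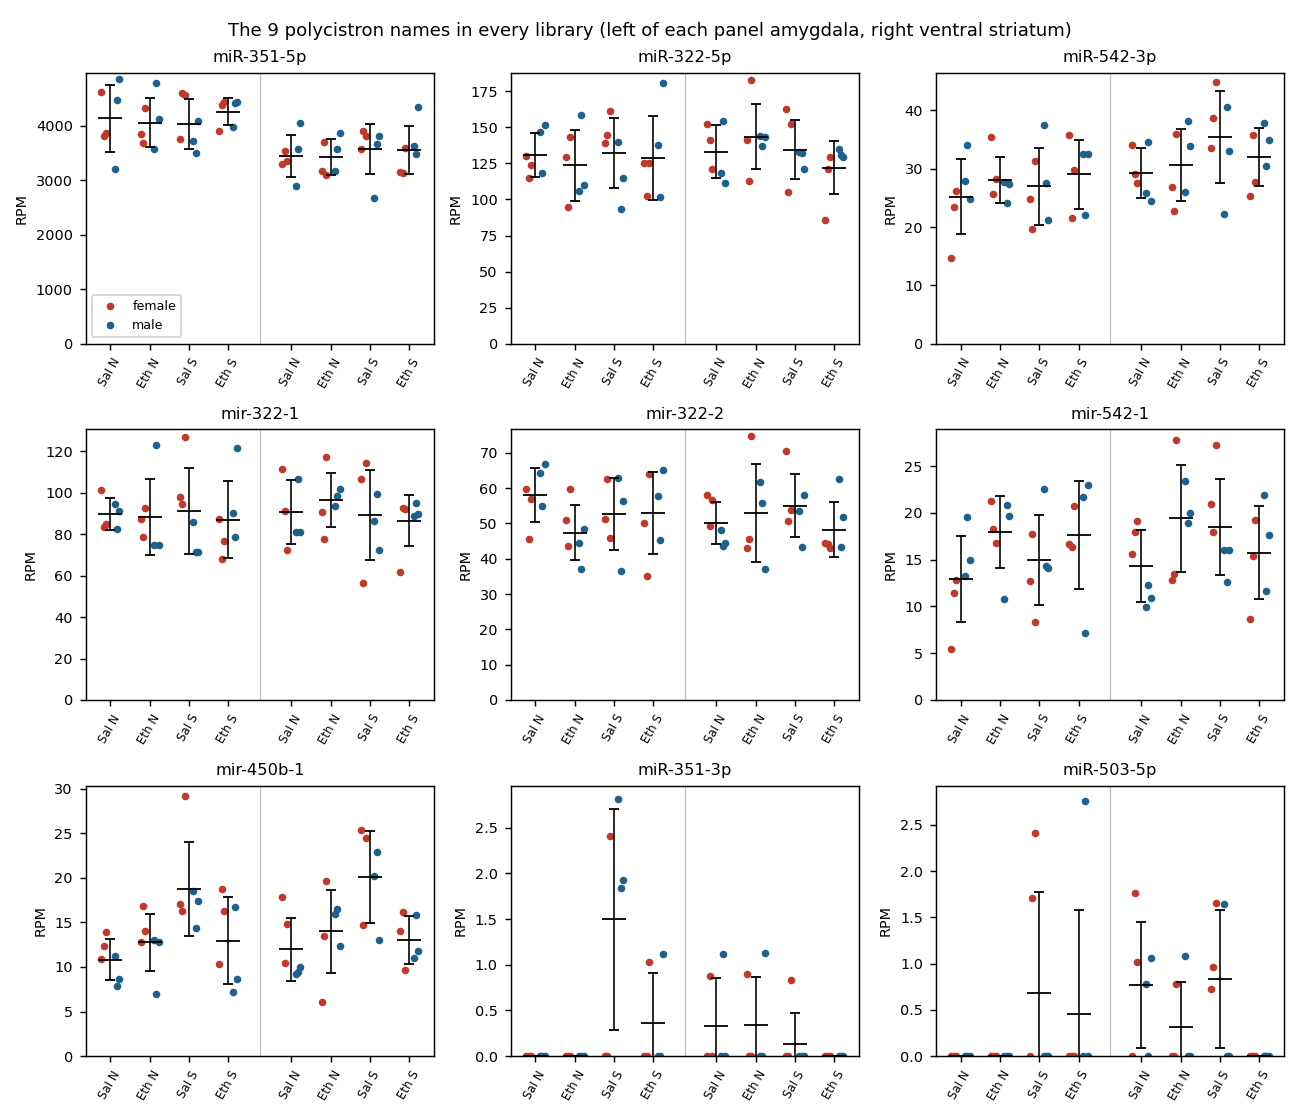
RPM of each of the 9 names (vertical axes, from 0) in the 48 libraries by treatment group, with saline (Sal) or ethanol (Eth) and non-enriched (N) or socially-enriched (S) housing; points are libraries, bars the mean and SD of 6. miR-351-5p sits higher on the amygdala side, mir-450b-1 is highest in the saline socially-enriched groups of both regions, and miR-351-3p and miR-503-5p stay under 3 RPM.

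miR-351-5p, the most abundant name, was higher in the amygdala than in the ventral striatum. Its lowest, median and highest values were 3203, 4101 and 4850 RPM in the 24 amygdala libraries and 2679, 3568 and 4340 RPM in the 24 ventral striatum libraries. The ranges overlapped, and the means were 4118 ± 441 RPM and 3498 ± 382 RPM (SD, n = 24 each). In a limma fit to all 48 libraries, with 16 cells of sex, treatment and region, the difference was 0.24 on the log2(RPM + 1) scale (SE 0.05; 1.18-fold; Benjamini-Hochberg adjusted p = 0.000354). Of all 942 names tested, 278 (29.5%) differed between the regions at an adjusted p under 0.05, against 1 of the 9 members, so the share of members was no higher than that of all names. The median log2 difference was −0.05 over the members and −0.08 over all names.

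The mir-351 precursor rows, which hold the same reads, had differences of 0.18 (mir-351-1, adjusted p = 0.0328) and 0.37 (mir-351-2, adjusted p = 9.5e-06). The 11 amygdala libraries with little signal from the choroid plexus list had a mean of 4067 ± 488 RPM of miR-351-5p and the 13 with much had 4162 ± 412 RPM, both above the ventral striatum. With the level of that list as a covariate, the difference was 0.23 (adjusted p = 0.00225).

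miR-542-3p went the other way without passing the threshold. It ranged from 14.7 to 37.5 RPM (median 27.4) in the amygdala and from 22.2 to 44.8 RPM (median 33.3) in the ventral striatum, with a log2 difference of −0.22 (SE 0.09, adjusted p = 0.0537). The oligodendrocyte list was lower in the amygdala as well, with group medians of 6193 to 8702 RPM against 9857 to 12455 RPM, and libraries from 4671 to 15452 RPM against 6218 to 15920 RPM. Its part in the region differences of miR-351-5p and miR-542-3p was not tested. The adjusted p of the miR-542-3p region difference ran from 0.0210 to 0.883 over the alternatives with other settings and from 0.0267 to 0.0905 over those that left out 1 library. miR-322-5p had medians of 128 and 133 RPM in amygdala and ventral striatum, with a log2 difference of −0.05 (95% interval −0.20 to 0.09, adjusted p = 0.642). The precursors mir-322-1 and mir-322-2 had differences of −0.02 and 0.03, mir-542-1 of −0.11 and mir-450b-1 of −0.09, each with an adjusted p of 0.545 or above. Among names of the polycistron outside the 9, mir-542-3 was at −0.25 (adjusted p = 0.116) and miR-450a-5p at −0.12 (adjusted p = 0.247).

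**Figure D2:**
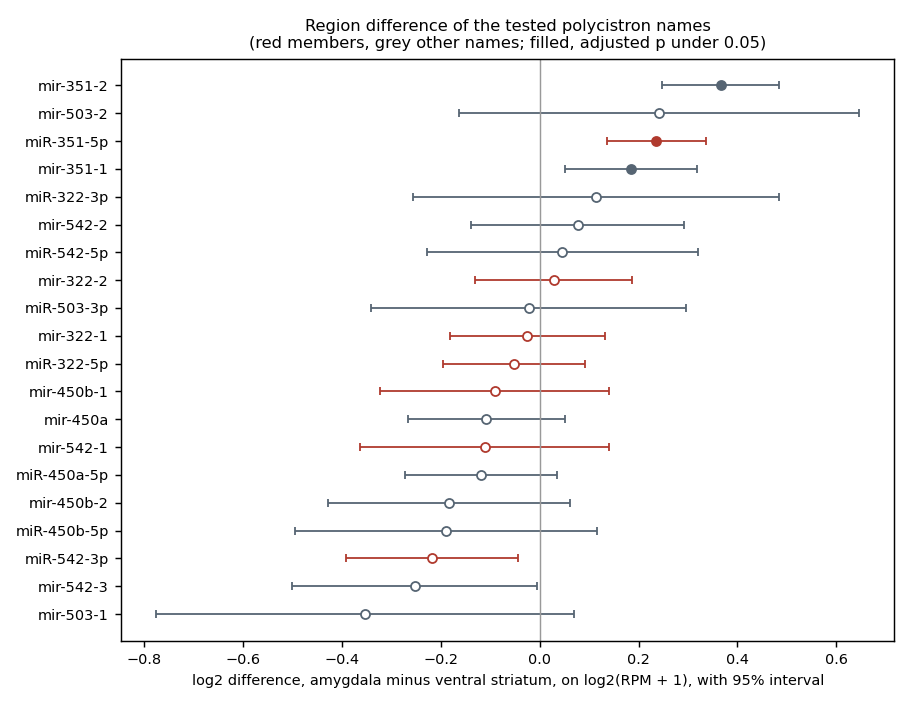
Difference between the regions (amygdala minus ventral striatum, horizontal axis, log2(RPM + 1)) with its 95% interval for 20 names of the polycistron, leaving out both mature names that never passed the floor; red are members, grey other names, and filled symbols have an adjusted p under 0.05. The mir-351 names lie to the right of 0, and the mir-450a and mir-450b names to the left with intervals that include 0.

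Since a member past the threshold and another short of it need not differ, the ratio of members within a library was compared between the regions. This comparison was chosen after the values were seen. miR-351-5p was a median of 31.8 times as abundant as miR-322-5p in the amygdala (range 21.8 to 43.4) and 26.4 times in the ventral striatum (16.9 to 36.9). The log2 ratio was 0.29 higher in the amygdala (two-sided permutation test of region labels within sex and treatment, 100000 resamples, p = 0.0009, adjusted over 3 ratios 0.00135). Against miR-542-3p, the ratio of miR-351-5p was 0.45 higher on the log2 scale (permutation p = 3e-05, adjusted 9e-05). The ratio of miR-322-5p to miR-542-3p differed by 0.17 (permutation p = 0.0801). These permutations treated the regions as independent, although both came from the same set of rats, and no paired version is given. Hence, between these regions, miR-351-5p did not keep a fixed proportion to either of the other mature members.

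Relatives by seed gave a comparison outside the polycistron. Of the 6 relatives in the table, miR-16-5p, which shares the seed of miR-322-5p and averaged 6172 RPM, was lower in the amygdala (log2 difference −0.27, adjusted p = 0.000104). miR-125b-5p, which shares the seed of miR-351-5p, averaged 7360 RPM and was higher in the amygdala by 0.14 (adjusted p = 0.0497). miR-125a-5p had a difference of 0.15 (adjusted p = 0.265), miR-15b-5p of −0.19 (adjusted p = 0.128), and miR-195-5p and miR-497-5p of 0.04 and 0.07 (adjusted p of 0.569 or above). The seed group of miR-351-5p thus held a member and a relative that were higher in the amygdala, and a relative short of the threshold. Since 29.5% of all names differed between the regions, nothing is read from this about the seed.

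Reads of mir-351 were divided between its rows in a way that split the libraries. mir-351-1 took between 58.4% and 61.04% of the reads of both rows in 24 libraries and between 63.7% and 71.6% in the other 24, with no library between. Binomial counting error was 0.858 percentage points on average. Within the lower set the shares differed by no more than counting (chi-square 20.2, 23 degrees of freedom, p = 0.628), and within the upper set by more (chi-square 129, p = 1.03e-16). The sets were spread evenly over the treatments: in the amygdala each sex and treatment had 2 libraries in the lower set and 1 in the upper, and in the ventral striatum 1 and 2. The 8 amygdala libraries of the upper set were the 8 with the fewest reads of that region (363141 to 622111). The libraries were sequenced in 6 multiplexed sets, but which library was in which is not given in the labels, and any part of it in this split was not tested. mir-322-1 took a pooled 60.5% of mir-322 reads in the libraries of the lower set and 65.8% in those of the upper set.

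**Figure D3:**
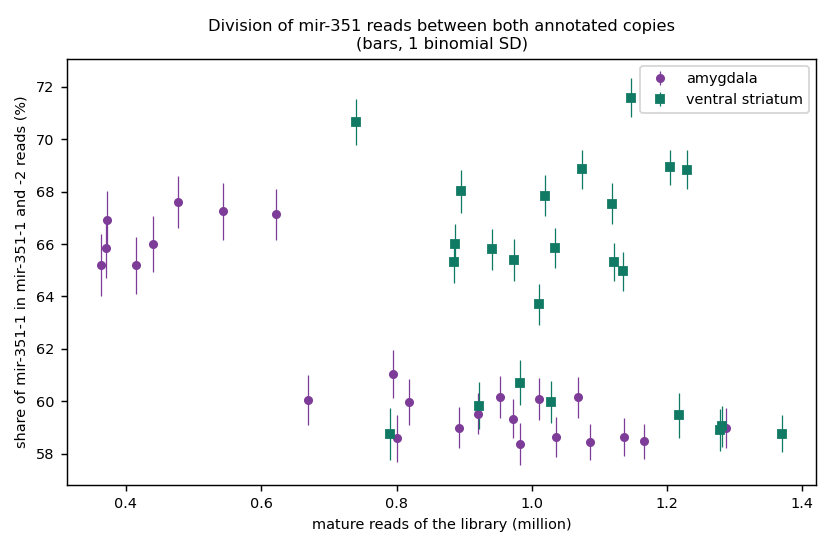
Share of mir-351-1 among the reads of mir-351-1 and mir-351-2 (vertical axis, percent, not from 0) against the mature reads of each library (horizontal axis, in units of 1000000); circles are amygdala, squares ventral striatum, bars 1 binomial SD. Libraries form a band at 58.4% to 61.04% and a wider one at 63.7% to 71.6%.

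Because regions were unequally represented in the sets, the region difference was also fitted within each. The fit in the upper set took both parts of its ventral striatum libraries together, so it did not compare the regions within one part. miR-351-5p was higher in the amygdala by 0.34 (adjusted p = 0.0333) in the lower set and by 0.23 (adjusted p = 0.0153) in the upper. In the lower set, medians were 3936 RPM in 16 amygdala and 3155 RPM in 8 ventral striatum libraries. In the upper set, they were 4443 RPM in 8 and 3623 RPM in 16. Within each region the median of miR-351-5p was also higher in the upper set. A covariate for the share of mir-351-1 gave a region difference of 0.27 (adjusted p = 7.64e-05). For miR-542-3p the values were −0.04 (adjusted p = 0.883) in the lower set and −0.40 (adjusted p = 0.0210) in the upper, so the difference was past the threshold in the upper set only and whether the sets differ was not tested.

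Whether members moved together was examined from library to library, after subtracting the mean of the sex and treatment group in log2(RPM + 1). Members were included that were abundant enough (a mean of at least 10 RPM), which gives 3 pairs in each region and 6 tests. In the amygdala Pearson's r was 0.30 for miR-322-5p and miR-351-5p (Spearman's rho 0.35; permutation p = 0.185 and 0.150; n = 24). For miR-322-5p and miR-542-3p in the amygdala r was 0.30 (rho 0.30; permutation p = 0.204 and 0.195), and for miR-351-5p and miR-542-3p it was −0.35 (rho −0.39; permutation p = 0.106 and 0.0869). The first pair had, for the ventral striatum, r = −0.18 (rho −0.28; permutation p = 0.403 and 0.220). The second pair had the highest correlation, r = 0.45 (rho 0.42; permutation p = 0.0624 and 0.0834), and the third had r = 0.30 (rho 0.22; permutation p = 0.359 and 0.432). After adjustment over the 6 pairs the smallest p was 0.306 for r and 0.261 for rho, so 0 of 6 pairs passed, and 0 passed unadjusted.

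Leaving out the 2 libraries farthest from the median of the first name of a pair gave r of 0.37, 0.16 and −0.44 in the amygdala and of −0.23, 0.46 and 0.04 in the ventral striatum, in the same order. The relation of miR-351-5p to miR-542-3p in the ventral striatum thus rested on those libraries, and with the copy share removed it was also 0.04. As a scale for these values, the median r over all pairs of mature names with at least 10 RPM was 0.06 in the amygdala (301 names) against 0.05 in the ventral striatum (312 names), with quartiles of −0.21 and 0.33 for the former and −0.24 and 0.31 for the latter. Of the 6 member pairs, 4 lay between those quartiles, with r = 0.45 in the ventral striatum above the upper one and r = −0.35 in the amygdala below the lower one. The member pairs had other values within the larger copy share set of each region (16 libraries, 2 per sex and treatment). There, in the same order, r was 0.27, 0.33 and −0.54 in the amygdala and −0.41, 0.65 and −0.51 in the ventral striatum, without a test. With 2 libraries per group, both deviations of a group mirror each other, so each r rests on 8 independent differences. In the ventral striatum each difference was taken between both parts of the upper set.

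**Figure D4:**
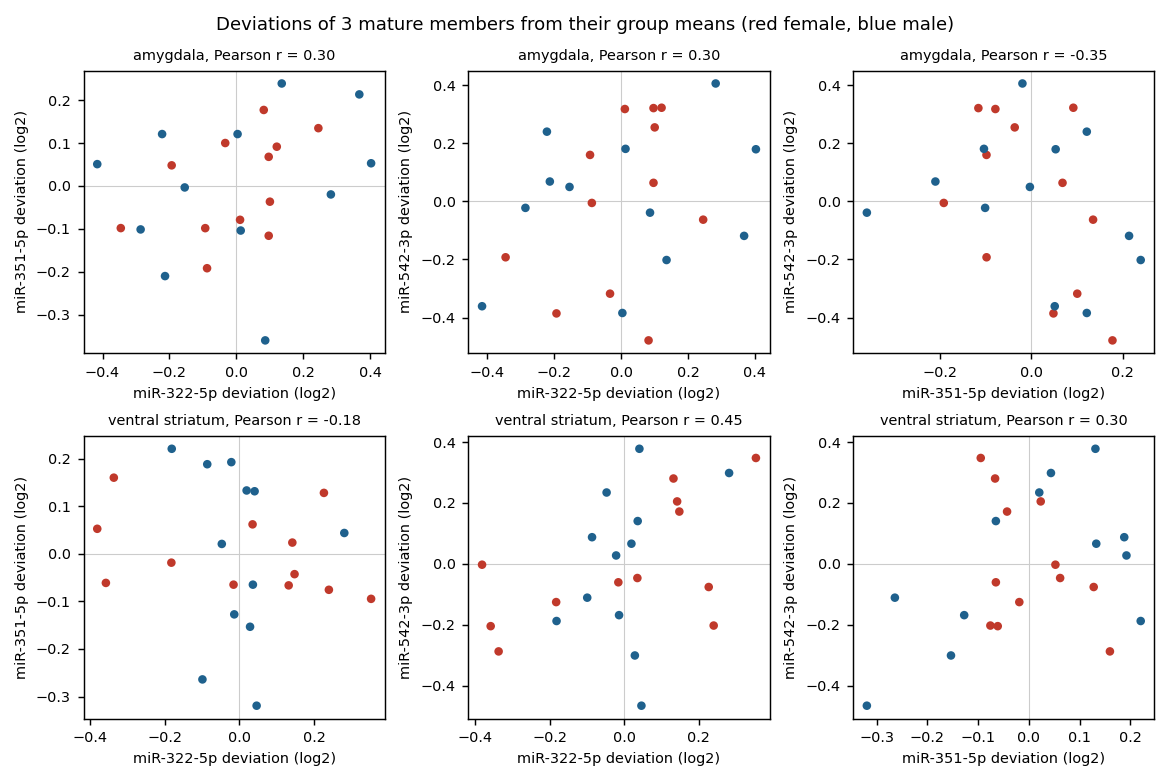
Deviations of miR-322-5p, miR-351-5p and miR-542-3p from their group means (both axes, log2) in 24 amygdala (upper row) and 24 ventral striatum libraries (lower row); each point is a library, red female and blue male. Points scatter around 0 with r between −0.35 and 0.45.

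The scatter was set against counting error. For miR-351-5p the within-group SD was 0.17 on the log2 scale in both regions against a counting SD of 0.03 (amygdala) and 0.02 (ventral striatum). For miR-322-5p the within-group SD was 0.26 and 0.23 against 0.16 and 0.13. For miR-542-3p, with a median of 23 reads (amygdala) and 31 reads (ventral striatum), the SD of 0.31 and 0.27 were close to the counting SD of 0.35 and 0.26. mir-450b-1 and mir-542-1 had medians of 12 to 21.5 reads and within-group SDs of 0.36 to 0.48 against counting SDs of 0.34 to 0.46. At this depth the variation of these names could not be separated from counting.

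With all mature names of the polycistron of at least 10 RPM (miR-450a-5p, miR-450b-5p and miR-542-5p added after the values were seen), there were 15 pairs in each region. The median r was 0.11 in the amygdala against 0.28 in the ventral striatum. Of the 30 pairs, 1 passed an adjusted p under 0.05, and it was negative: miR-351-5p and miR-450b-5p in the ventral striatum (r = −0.74, rho −0.75; permutation p = 0.00039 and 0.00051, adjusted 0.0117 and 0.0153; n = 24). Without the 2 libraries farthest in miR-351-5p this r was −0.70, and with the mature reads, the copy share, the replicate number or the choroid plexus level removed it lay between −0.62 and −0.75. miR-450b-5p had a median of only 15 reads in the ventral striatum. Its within-group SD there was 0.52 on the log2 scale against a counting SD of 0.39. Over the 16 ventral striatum libraries of the upper set the r of this pair was −0.61. These hold 2 libraries per group, whose deviations mirror each other, so this r rests on 8 independent differences. The 8 of the lower set hold 1 library per group and give no value. In the amygdala the same pair had r = −0.22 (permutation p = 0.282, adjusted 0.403), and whether the regions differ in it was not tested. miR-450a-5p and miR-450b-5p share a seed and lie next to each other, and their sequences differ only in the last bases. Their r was 0.50 in the amygdala (rho 0.59, adjusted permutation p = 0.183 and 0.116) against 0.41 in the ventral striatum (rho 0.44, adjusted permutation p = 0.183 and 0.200). How reads matching both names were divided is not given, and its part in this r was not tested. Within the larger copy share set of each region, r of the 15 pairs ran from −0.75 to 0.73 (amygdala) and from −0.61 to 0.81 (ventral striatum), without a test.

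Names outside the polycistron were ranked by the correlation of their deviations with the mean standardised deviation of the 3 abundant members over 48 libraries, as a description. Of 301 names, miR-142-5p, an arm known from blood and immune cells and listed among the microglia and leukocyte markers here, was the most alike (r = 0.54, mean 226 RPM). It was followed by miR-30a-3p (0.48), let-7i-5p (0.48), miR-130a-3p (0.46) and miR-7a-2-3p (0.45). No other name of that list of 4 markers was among the 8 highest, and nothing is read from miR-142-5p alone. Of the polycistron itself miR-450a-5p reached 0.30, and miR-542-5p and miR-450b-5p were at 0.08 and −0.02. The outside names given are the highest of the ranking, so nothing is read from the distance to them. The libraries share depth and scaling to a fixed total, whose part in these correlations was not tested.

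Prenatal ethanol and social enrichment gave no difference past the threshold in the abundant members, and the intervals show what size was covered. For ethanol, averaged over housing and sex, miR-351-5p of the amygdala differed by 0.03 (95% interval −0.12 to 0.18), miR-322-5p by −0.07 (−0.29 to 0.15) and miR-542-3p by 0.15 (−0.13 to 0.42) on the log2 scale, ethanol minus saline. Those of the ventral striatum were −0.01 (−0.15 to 0.14), −0.02 (−0.22 to 0.18) and −0.04 (−0.28 to 0.20). Social enrichment, averaged over exposure, gave 0.02 (−0.12 to 0.17), 0.03 (−0.19 to 0.25) and 0.07 (−0.21 to 0.35) in the amygdala and 0.05 (−0.09 to 0.19), −0.11 (−0.31 to 0.09) and 0.16 (−0.08 to 0.40) in the ventral striatum. For miR-351-5p, differences larger than 0.20 on this scale in either direction lay outside the intervals of both effects in both regions. The intervals of miR-542-3p reached up to 0.42 for ethanol in the amygdala and 0.40 for enrichment in the ventral striatum. Its other intervals ended at 0.20 (ethanol, ventral striatum) and 0.35 (enrichment, amygdala), and none went below −0.28.

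In 15 comparisons of treatment or sex, 0 members passed an adjusted p under 0.05 in limma, as did 0 of the names tested (910 for the amygdala, 933 for the ventral striatum and 942 over both regions). Of the members, 8 were tested in each region, since miR-503-5p in the amygdala and miR-351-3p in the ventral striatum were above 0 in fewer than 6 libraries. At an unadjusted p under 0.05, the ethanol effect had 0 members in the amygdala (4.4% of all names) against 1 in the ventral striatum (3.22%), and the enrichment effect had 2 (3.08%) and 0 (4.39%). In non-enriched rats [N(EvC)] the ethanol effect had 0 members in both regions (4.51% and 2.04% of names), and in enriched rats [S(EvC)] it had 2 and 2 (3.85% and 2.25%). Enrichment in saline rats [C(SvN)] had 2 and 1 (2.64% and 3.86%), and in ethanol rats [E(SvN)] 0 and 0 (2.64% and 1.82%). The interaction of exposure and housing had 1 and 2 (3.85% and 2.57%), and sex had 1 (3.93%).

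These counts came from 4 names. mir-450b-1 was in 8 of the comparisons, miR-351-3p in 3, miR-503-5p in 2 and mir-542-1 in 1. Comparisons of a region use the same 24 libraries and share groups, so the counts are not independent of each other. The amygdala counts of C(SvN), the enrichment effect, S(EvC) and the interaction include mir-450b-1 and rest on libraries whose values were behind the choice of members, so that nothing is read from them against the share of all names. miR-351-3p and miR-503-5p never passed the floor, and their values are reads in a handful of libraries: in the amygdala miR-351-3p had 1 to 3 reads in 4 of 6 saline socially-enriched and 1 read in 2 of 6 ethanol socially-enriched libraries, and 0 in the 12 non-enriched. miR-503-5p of the ventral striatum had 1 or 2 reads in 4 of 6 libraries of both saline groups, 1 read in 2 of 6 ethanol non-enriched and 0 in 6 of 6 ethanol socially-enriched libraries.

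mir-450b-1 had its lowest median in the saline non-enriched libraries and its highest in the saline socially-enriched libraries of both regions, and the ethanol groups lay between them. In the amygdala its lowest, median and highest values were 7.84, 11.1 and 13.9 RPM in saline non-enriched libraries and 14.3, 17.2 and 29.2 RPM in saline socially-enriched ones. These 2 groups did not overlap. Ethanol non-enriched libraries had 6.96, 12.9 and 16.9 RPM, and ethanol socially-enriched ones 7.22, 13.2 and 18.7 RPM. In the ventral striatum the values were 9.25, 10.2 and 17.8 RPM (saline non-enriched), 12.99, 21.5 and 25.4 RPM (saline socially-enriched), 6.04, 14.7 and 19.7 RPM (ethanol non-enriched) and 9.64, 12.9 and 16.1 RPM (ethanol socially-enriched). There the saline groups overlapped.

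On the log2 scale, enrichment in saline rats gave 0.73 for mir-450b-1 in the amygdala (SE 0.22), a value that was among those behind the choice of members and is given without a test. From the other tissue of the same rats, the ventral striatum, it gave 0.70 (SE 0.24; limma adjusted p = 1). In ethanol rats it gave −0.01 and −0.04. The interaction was −0.74 and ethanol in enriched rats gave −0.54 in the amygdala, again without a test, since both use the saline socially-enriched libraries behind the choice. From the ventral striatum the same values were −0.74 and −0.57, each with a limma adjusted p = 1. Over the alternatives, including each library left out, enrichment in saline rats ran from 0.46 to 0.80 in the amygdala and from 0.45 to 0.82 in the ventral striatum. The level of the name was 3 to 40 reads per library.

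The other rows of the same hairpin were set beside it. mir-450b-2, the second copy, had medians of 16.003 and 21.4 RPM in the saline non-enriched and saline socially-enriched amygdala and of 18.7 and 20.6 RPM in the ventral striatum, with log2 differences of −0.07 (95% interval −0.59 to 0.44) and 0.17 (−0.33 to 0.66). The mature arm, miR-450b-5p, had differences of 0.33 (−0.31 to 0.97) and 0.53 (−0.09 to 1.15). With both copies added up, the saline non-enriched and saline socially-enriched means were 30.7 ± 8.91 and 37.8 ± 10.1 RPM in the amygdala and 31.6 ± 8.45 and 42.7 ± 12.99 RPM in the ventral striatum (SD, n = 6 each). In both regions the ranges of these sums overlapped. mir-450b-1 took 34.9% and 47.8% of the reads of both copies in those amygdala groups and 37.8% and 46.6% in the ventral striatum.

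**Figure D5:**
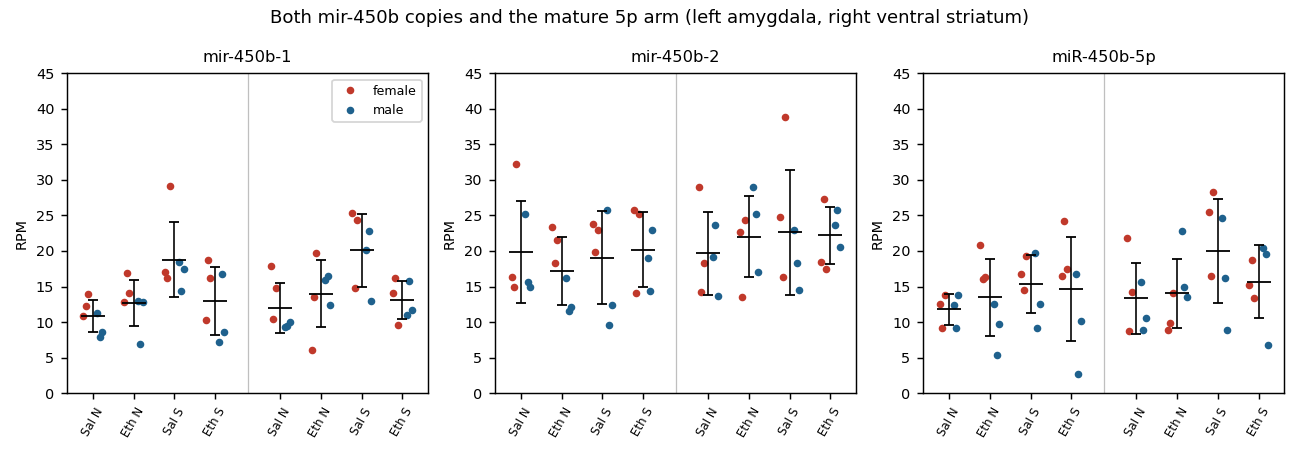
RPM (vertical axes, from 0) of mir-450b-1, mir-450b-2 and miR-450b-5p by region and treatment group, with saline (Sal) or ethanol (Eth) and non-enriched (N) or socially-enriched (S) housing; points are libraries (red female, blue male), bars the mean and SD of 6. The saline socially-enriched group stands highest for mir-450b-1 in both regions, while the groups of mir-450b-2 overlap.

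Ethanol in non-enriched rats had been singled out earlier for mir-322-2 in the amygdala and for mir-542-1 in the ventral striatum, and both are given here as a description. The authors listed both for changes in the same direction by sequencing and by microarray. The microarray values are not used here. mir-322-2 had lowest, median and highest values of 45.7, 58.4 and 66.9 RPM in saline and 37.1, 46.4 and 59.8 RPM in ethanol libraries, a log2 difference of −0.29 (SE 0.16). The choroid plexus and ependyma list, at its lowest, median and highest, was 3675, 9708 and 41785 RPM in those saline libraries and 4094, 37736 and 145266 RPM in the ethanol ones. With the level of that list as a covariate, the log2 difference of mir-322-2 was −0.35. Its other copy, mir-322-1, had medians of 88.05 and 82.9 RPM, and both copies together means of 148 ± 13.6 and 136 ± 17.2 RPM (SD, n = 6 each). In the ventral striatum the log2 difference of mir-322-2 was 0.05. mir-542-1 had medians of 13.9 and 19.4 RPM in the ventral striatum (log2 difference 0.40, SE 0.21), and of 13.1 and 18.9 RPM in the amygdala (0.50, SE 0.28). The 3 mir-542 copies together had means of 46.1 ± 7.69 and 50.9 ± 11.6 RPM in the ventral striatum and of 44.1 ± 5.46 and 46.3 ± 6.29 RPM in the amygdala, groups that overlapped widely.

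Ethanol in enriched rats gave a log2 difference below 0 for the 8 tested members of the ventral striatum, 1 of which, miR-503-5p, never passed the floor. Of all 933 names tested there, 534 were below 0, as were 9 of the 13 other names of the polycistron, with 4 above 0. miR-351-5p contributed −0.01, miR-322-5p −0.14 and miR-542-3p −0.13, each with an interval that included 0. In the amygdala the same comparison had 4 members above 0 and 4 below. The precursor and mature members share reads, so the 8 names are fewer than 8 measurements.

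Females and males were compared over both regions. The difference, female minus male, was −0.01 for miR-351-5p (95% interval −0.11 to 0.09), −0.01 for miR-322-5p (−0.15 to 0.14) and −0.06 for miR-542-3p (−0.23 to 0.12). mir-450b-1 had 0.25 (0.02 to 0.48; adjusted p = 1), and outside the members miR-450b-5p had 0.35 (0.04 to 0.65; adjusted p = 1). The polycistron lies on the X chromosome, of which females carry a pair, and the members gave no difference between the sexes past the threshold.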

How the data were processed

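Per the authors' methods, small RNA of pooled amygdala and ventral striatum RNA was sequenced after TruSeq library preparation, trimmed, aligned to Rn5 with Bowtie and quantified against miRBase in Partek Flow. The deposited table gives a normalized signal per name, described as RPM; how reads matching several names were divided is not given in the sources used here, and of the low mature values of a library 92.7% to 99.6% were whole reads (within 0.02), so no count test was run. Rows sharing a name (122 rows of 56 names) were summed.

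Log2(signal + 1) of the names above 0 in 6 or more of the 24 libraries of a region was fitted in R 4.3.3 with limma 3.58.1 (moderated two-sided tests with an intensity trend), with 8 cells of sex and treatment per region or 16 over both, and Benjamini-Hochberg adjustment over every name tested. A fold change on this scale understates the change of low names. Correlations used deviations from cell means and 100000 permutations within cells (Python 3.11.15, numpy 2.4.6, scipy 1.17.1). The calculations were tested on simulated data. The members, lists and tests were chosen with earlier results of these data known. Named were the 9 members, the other names of the polycistron, the seed relatives and the 5 outside names most like the members. Libraries are pools of separate rats, per the methods. Over 48 pairs of libraries of one group, counts differed by at least 31.9 times sampling noise (chi-square per degree of freedom), so no library was a copy of another.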

Additional observations from a re-analysis of the deposited data

Results flagged for a closer look

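Of 56 sets of 6 libraries (a member in one region and treatment group, with more than 3 reads in at least 1 library), 6 held a library whose distance from its nearest neighbour was beyond Dixon's 95% critical share of the range of the set; chance gives about 1 in 20. In the ventral striatum of ethanol socially-enriched rats, female replicate 1 had 61.6 RPM of mir-322-1 against 88.7 to 94.9 in the others, and 85.996 RPM of miR-322-5p against 121 to 135. These values share reads. In the amygdala of ethanol non-enriched rats, male replicate 2 had 123 RPM of mir-322-1 (others 74.8 to 92.6) and female replicate 1 had 35.4 RPM of miR-542-3p (others 24.2 to 28.2). Male replicate 1 of the saline socially-enriched ventral striatum had 2679 RPM of miR-351-5p, the lowest of the 48 libraries (others of its group 3564 to 3895). Female replicate 3 of the saline socially-enriched amygdala had 29.2 RPM of mir-450b-1, which is 14 reads, against 14.3 to 18.5. Without any 1 library of the amygdala, enrichment in saline rats still gave a log2 difference of mir-450b-1 between 0.60 and 0.80. The responses of members to ethanol, enrichment and sex were also compared between the regions, and 0 of 9 members passed an adjusted p under 0.05 in limma, with 1 at an unadjusted p under 0.05 (miR-351-3p, which never passed the floor).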

How the results depend on the processing

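Alternative fits changed the pseudocount (0.1 or 10), the filter (none, or a mean of 10 RPM or more) and the scaling (median ratio), separated mature from precursor names, added the replicate number, log2 reads or, between regions, consecutive library numbers to the model, and dropped each library once. The copy share of mir-351-1, the choroid plexus list level and fits within the copy share sets were added after the data were seen. In the region difference, miR-351-5p had an adjusted p under 0.05 in all 13 other settings and all 48 fits without 1 library (log2 difference 0.18 to 0.34). The number of members past the threshold rose from 1 to 2 with the filter on a mean of 10 RPM, with consecutive numbers as a block and in the sets under and above the copy share gap, the second name being miR-542-3p except under the gap, where it was miR-503-5p, which never passed the floor. Without 1 library it ran from 1 to 2, with miR-542-3p added in 15 of the 48 fits. In the other 15 comparisons 0 members passed in any of 536 fits. Of 4819 single values, 0 reversed a sign past an unadjusted p of 0.05. For the member correlations the count was 0 in every setting, except that adding the other mature names gave 1 pair in the ventral striatum. Within the larger copy share sets only r was taken, from 8 independent differences. For several pairs it differed much from that over all libraries of the region. Over both sexes together, the median correlation of same-numbered libraries was 0.02 (amygdala) and −0.01 (ventral striatum). Of 84 pairs, 32 and 31 were over 0.1. Replicate numbers thus did not pair the libraries as a whole, but in males they followed the copy share. In every treatment group, male replicate 2 of the amygdala was above the gap (65.2% to 67.2%) and replicates 1 and 3 under it. Male replicate 1 of the ventral striatum was always under the gap, and replicates 2 and 3 above it. Females had no such order, and correlations for each sex alone are not given. With the replicate block, 1 member passed in the region difference and 0 in the others, and 0 pairs correlated. Depth limits mir-450b-1, mir-542-1 and miR-542-3p, whose scatter was close to counting error. It also limits miR-450b-5p, with a median of 11 reads (amygdala) and 15 reads (ventral striatum).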
